A study of Citrus trifoliata with 6 samples.

Results

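The heat shock proteins and molecular chaperones of lateral roots of Poncirus trifoliata, a citrus rootstock, are described here in plants colonized by the arbuscular mycorrhizal fungus Glomus versiforme (Gv) and in control plants. Members were the genes whose best protein match, as the deposited annotation words it, names a heat shock protein or factor, a numbered HSP, a chaperonin, a chaperone protein dnaJ, a luminal-binding protein, a calreticulin or a protein disulfide isomerase. That rule gave 105 of the 22589 genes with reads. They comprised 19 small HSPs, 17 HSP70 genes, 2 HSP90 genes, 18 DnaJ proteins and 6 heat stress factors. The others were 11 chaperones of the endoplasmic reticulum (ER), 9 chaperonins, 8 cochaperones and 15 genes placed in no family. All 15 had the same match, worded only as a heat shock protein of Citrus unshiu, and no KEGG entry. Whether these 15 are heat shock genes is therefore uncertain.

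Each group held 3 libraries, sampled at 3 months after inoculation from pots fed with half-strength Hoagland solution at 20 µM phosphorus. Gv pots received about 3000 spores and control pots none. Each library was a biological replicate of pooled plants from different pots, so the values are means over plants and over all the cells of a whole lateral root. Fewer cells of a type and less RNA per cell cannot be told apart in such samples. Libraries held 4.34 M to 4.71 M reads on genes. The 6 symbiosis genes that served to check the labels, 2 PT4 phosphate transporter orthologs among them, summed to 1641, 1922 and 10860 reads in Gv against 7, 4 and 1 in control. All 3 Casparian strip genes, which mark the endodermis, had reads in every library, at a summed 2.05 to 8.20 RPM (reads per 1000000 reads on genes), and chlorophyll a/b-binding genes of green tissue summed to 22.6 to 54.1. Replicate 3 stood apart from replicates 1 and 2 in both groups, and Gv replicate 3 also held the most symbiosis reads.

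Chaperones bind proteins that are unfolded or only partly folded and keep them from clumping. HSP70 and HSP90 fold or hold client proteins at the cost of ATP, DnaJ proteins and other cochaperones steer the HSP70 cycle, chaperonins enclose a client in a chamber, and small HSPs hold unfolded proteins without ATP. Heat stress factors switch on many of these genes in heat, whereas luminal-binding protein, calreticulin and protein disulfide isomerase serve proteins entering the secretory pathway.

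Together the members took a similar share of the reads in both groups. They gave 8068, 8451 and 9476 RPM in Gv and 8020, 8153 and 9376 in control, or 8665 ± 728 and 8517 ± 747 (SD, n = 3). The groups overlapped, and the highest library of each was replicate 3. HSP70 genes gave 3870 ± 114 RPM in Gv and 3897 ± 305 in control, and HSP90 genes gave 1293 ± 174 and 1161 ± 134. ER chaperones gave 1761 ± 586 and 1784 ± 417, small HSPs 303.4 ± 42.6 and 295.5 ± 7.67, and chaperonins 307.4 ± 57.1 and 294.0 ± 59.0 (SD, n = 3 for each). In each of these families the 2 group means differed by less than the larger SD.

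**Figure D1:**
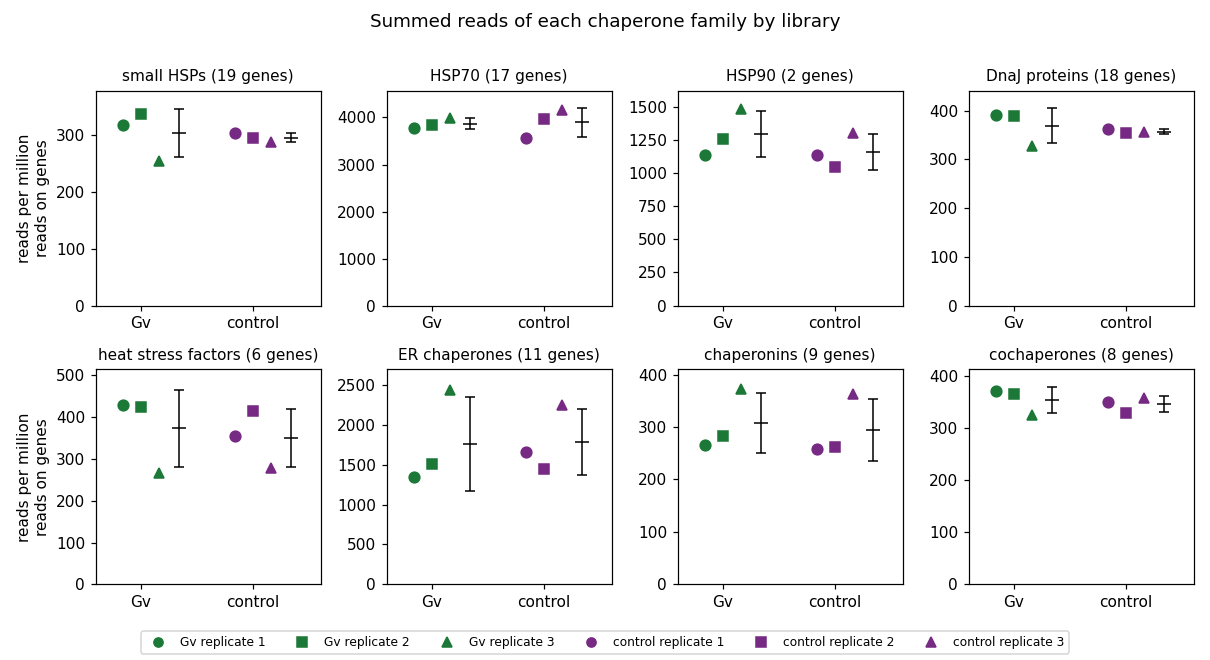
Summed level of each of 8 chaperone families, in RPM, by library (circle, square and triangle for replicates 1, 2 and 3), with the mean and SD of 3 libraries as a bar beside each group. Gv and control overlap in every panel, and replicate 3 is the highest library of both groups for ER chaperones (2430 and 2251) and chaperonins (373 and 362) and the lowest for heat stress factors (266 and 278).

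No member passed the test between Gv and control. Of the 105 members, 65 had enough reads to be tested. A member counted as called where edgeR's quasi-likelihood fit gave an adjusted p under 0.05 together with a doubling or halving, which is a log2 fold change of 1 or -1 or beyond. By that rule 0 members were higher and 0 lower in Gv, beside 0% of all 16281 genes tested in each direction. That fit called no gene at all, not even the symbiosis genes, so its 0 says nothing particular to the members. The smallest adjusted p of a member was 0.559. At an unadjusted p under 0.05, 2 members (3.08% of those tested) were higher, beside 3% of all genes, and 0 were lower, beside 1.57%. The fit with the replicate number as a block called 0.958% of all genes higher and 0.0369% lower, yet 0 members in either direction. In that fit 5 members (7.69%) had an unadjusted p under 0.05 and were higher, beside 5.44% of all genes, and 0 were lower, beside 3.56%. DESeq2 called 1.15% of all genes higher and 0.0369% lower, and again 0 members, with 1 member (1.54%) higher at an unadjusted p under 0.05, beside 2.87% of all genes, and 0 lower, beside 1.52%.

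The members' fold changes were small. Their median log2 fold change (Gv over control) was 0.01, beside -0.01 over all genes tested, and 61 of the 65 lay within 0.5 of zero. The 95% confidence interval stayed within a log2 fold change of 1 in either direction for 50 of the 65 members (76.9%), beside 68.1% of all genes. This interval held for 11 of 12 HSP70 genes tested, both HSP90 genes and all 8 ER chaperones, but for only 6 of 11 small HSPs. For the remaining 15 members a change larger than 1 was within the interval. Every Gv library was above every control library in 3 members, beside 5.17% of all genes, and below in 1, beside 3.99%, so neither count exceeded that of genes at large.

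**Figure D2:**
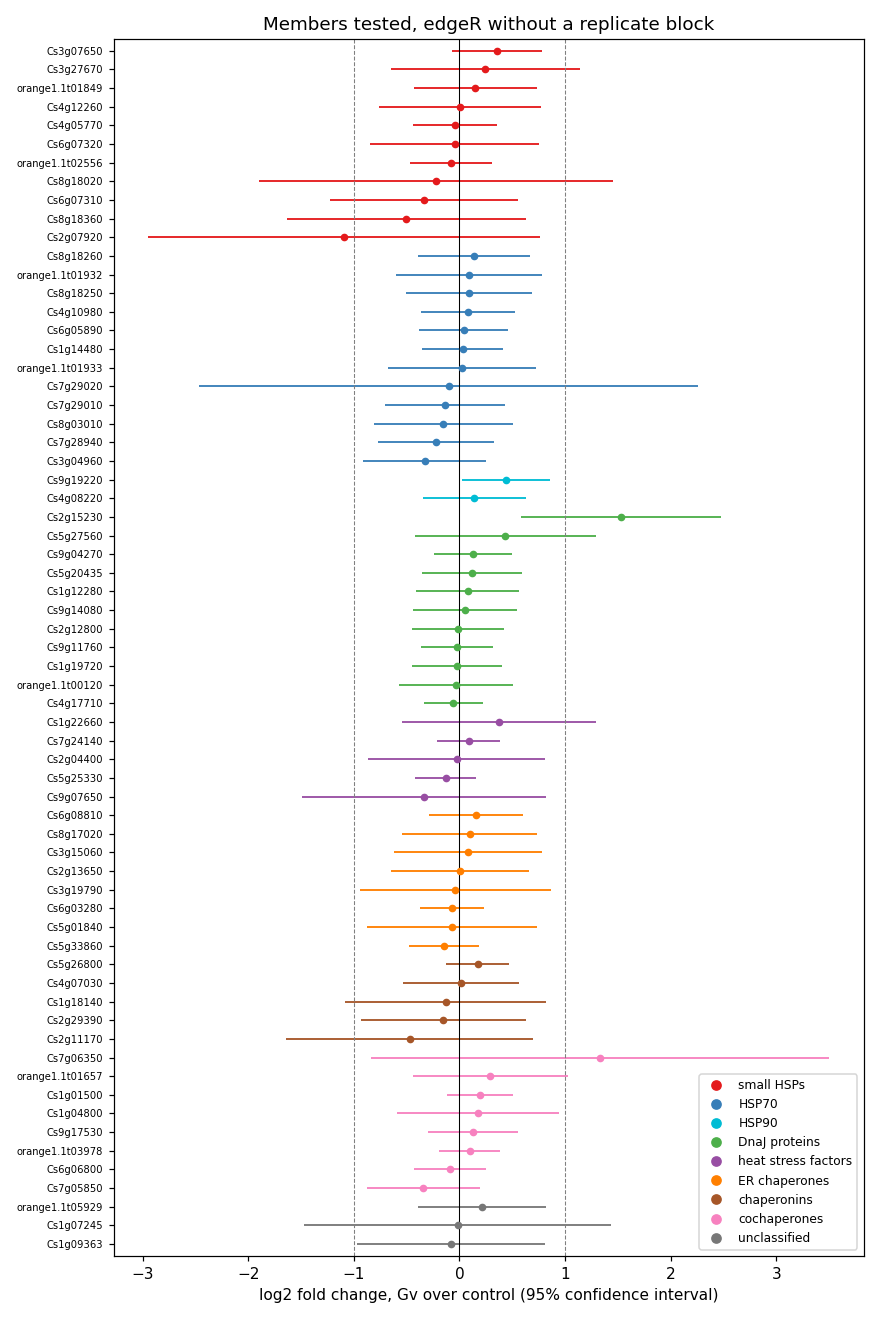
The log2 fold change of Gv over control for the 65 members tested, each with its 95% confidence interval, coloured by family, with dashed lines at -1 and 1. Most points lie within 0.5 of zero. The intervals are widest for Cs7g29020 (HSP70), Cs7g06350 (calmodulin-binding heat shock protein, placed with the cochaperones) and Cs2g07920 (class V small HSP).

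Among the HSP70 genes, 12 of 17 were tested, with a median log2 fold change of 0.03 and a range from -0.33 to 0.14. The heat shock cognate Cs6g05890, a cytosolic type that is made without heat, had the highest level of all members at 364 ± 6.29 RPKM in Gv and 352 ± 13.4 in control (SD, n = 3), where RPKM scales reads by gene length and depth. It was also one of the steadiest, with 5016, 5344 and 5128 reads in Gv against 5242, 5072 and 5120 in control. The HSP70 gene Cs7g29010 had 2792, 3049 and 4000 reads in Gv against 3056, 3513 and 4545 in control, so that replicate 3 was the highest of each group and the groups overlapped.

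Cs7g29020, an HSP70 cognate with the next identifier, ran the other way across the replicates. It had 2398, 2231 and 369 reads in Gv against 1450, 3679 and 273 in control. The low library of each group was replicate 3, and the groups overlapped throughout. On the log2 scale of CPM (RPM after TMM scaling between libraries), replicate 3 was 2.61 below the mean of replicates 1 and 2 in Gv (-2.61) and 3.13 below it in control (-3.13). Per unit of length, the ratio of Cs7g29010 to Cs7g29020 was 0.880, 1.03 and 8.20 in Gv and 1.59, 0.722 and 12.6 in control. The log2 fold change of Cs7g29020 between the groups was -0.10 ± 0.99 (SE), with an interval from -2.47 to 2.26, the widest of the family.

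Reads were counted only where they aligned to a single place, so levels of closely alike copies are uncertain, and how alike these HSP70 copies are was not examined. Without Cs7g29020, the other HSP70 genes summed to 3226, 3360 and 3910 RPM in Gv and 3241, 3191 and 4097 in control, and replicate 3 was then clearly the highest of both groups. A pair of HSP70 genes under the test's minimum were read almost only in replicate 3: orange1.1t04990 had 1, 1 and 10 reads in Gv against 0, 0 and 21 in control. Its counterpart orange1.1t02795 had 0, 0 and 7 in Gv against 0, 0 and 16 in control. Both carry the same KEGG entry as the abundant cognates, and both were seen in colonized and control roots alike.

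The stromal HSP70 gene orange1.1t01933, which serves protein import into plastids, had 320, 391 and 571 reads in Gv against 361, 338 and 596 in control. The mitochondrial HSP70 gene Cs3g04960 had the lowest fold change of the family, with 70, 94 and 127 reads in Gv against 110, 117 and 148 in control. It was lower in Gv in each pair of equal replicate number, but the groups overlapped, and its log2 fold change of -0.33 ± 0.24 (SE) did not pass the test. Cs7g28940, matched to a high molecular weight heat shock protein, was likewise lower in each pair, with 470, 526 and 734 reads in Gv against 589, 623 and 867 in control.

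The largest fold changes of the family were small as well. Cs8g18260, a cognate, had 2023, 1982 and 1483 reads in Gv against 1373, 1591 and 2157 in control, and orange1.1t01932 had 657, 791 and 1079 in Gv against 658, 633 and 1152 in control. The groups overlapped in both, at log2 fold changes of 0.14 ± 0.22 and 0.09 ± 0.29 (SE), and Cs8g18260 departed in opposite directions in replicate 3 of the groups.

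Of the HSP90 genes, which hold late folding intermediates of kinases and receptors, Cs4g08220 gave 98.2% of the family's reads. It had 4891, 5712 and 6322 reads in Gv against 5013, 4839 and 5881 in control, and the groups overlapped. Its log2 fold change was 0.14 ± 0.20 (SE). The low HSP90 gene Cs9g19220 had 107, 121 and 108 reads in Gv against 101, 75 and 77 in control. Every Gv library was above every control library here, at 6.85 ± 0.254 RPKM in Gv and 5.02 ± 0.952 in control (SD, n = 3). The log2 fold change of Cs9g19220 was 0.44, with an interval from 0.02 to 0.85, and with an unadjusted p of 0.041 in edgeR it did not pass the adjustment over all genes.

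DnaJ proteins stimulate the ATPase of HSP70 and bring it clients. Of 18 genes, 11 were tested, and their median log2 fold change was 0.05. The only one beyond 0.5 was Cs2g15230, with 18, 35 and 19 reads in Gv against 8, 11 and 6 in control. All 3 Gv libraries were above all 3 control libraries, at 1.27 ± 0.457 RPKM in Gv and 0.428 ± 0.121 in control (SD, n = 3). Its log2 fold change of 1.53 (interval 0.59 to 2.48) was the largest of all members and had the smallest p, but the adjusted p was 0.559 in edgeR, 0.156 with the replicate block and 0.228 in DESeq2. It was also among the 3 members past 1 in size and was covered by only 6 to 35 reads a library.

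The chloroplast-type DnaJ gene Cs5g27560 had 83, 98 and 51 reads in Gv against 68, 71 and 35 in control. It was higher in Gv in each of the 3 pairs of equal replicate number, by 0.34, 0.40 and 0.61 in log2 CPM, while the groups overlapped because replicate 3 was low in both. The DnaJ genes of the highest level in RPKM differed by less than their SD. Cs9g11760 had 246, 237 and 207 reads in Gv against 236, 210 and 272 in control, and Cs4g17710 had 18.9 ± 1.51 RPKM in Gv and 19.6 ± 0.748 in control (SD, n = 3). Cs2g12800, which gave the most reads of the family, had 13.2 ± 2.21 RPKM in Gv and 13.2 ± 1.39 in control (SD, n = 3). A further DnaJ gene, orange1.1t00120, was lowest in replicate 3 of both groups, with 162, 164 and 106 reads in Gv against 143, 179 and 129 in control.

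**Figure D3:**
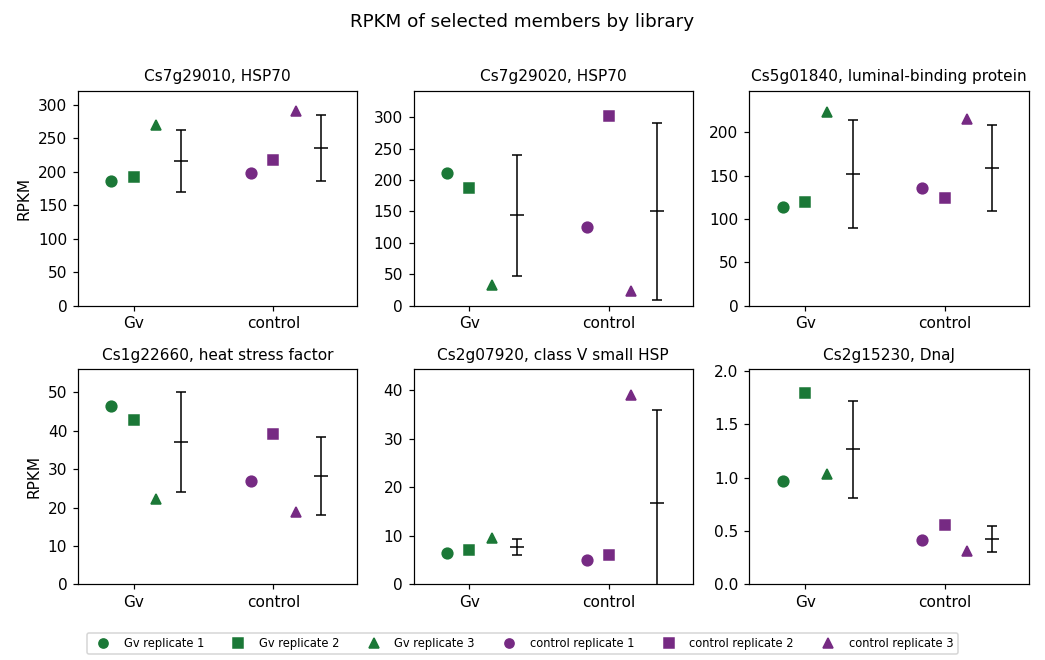
RPKM (reads per kilobase of gene, scaled to the reads on all genes) of 6 members by library, with the mean and SD of 3 libraries as a bar beside each group and each axis starting at 0, where the bar of Cs2g07920 in control is cut off. Cs7g29020 is low and Cs5g01840 high in replicate 3 of both groups, Cs2g07920 is high in control replicate 3 (38.9) and Cs2g15230 is higher in all Gv libraries than in any control library.

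Cochaperones were all tested, 8 of 8, with a median log2 fold change of 0.15. Among those that bind HSP70, orange1.1t03978, matched to the nucleotide exchange factor FES1, had 17.1 ± 1.35 RPKM in Gv and 15.9 ± 0.892 in control. Its groups overlapped. The HSP70-interacting protein gene Cs7g05850 had 361, 331 and 225 reads in Gv against 324, 384 and 485 in control. In replicate 3 this gene was at the low end of Gv and the high end of control, unlike most members, and its log2 fold change was -0.34 ± 0.22 (SE). Cs7g06350 was placed here only because its match names a calmodulin-binding heat shock protein, so its family is uncertain. It had 14, 27 and 7 reads in Gv against 7, 12 and 0 in control. Its groups overlapped, at a log2 fold change of 1.33 ± 0.91 (SE). With so few reads its interval ran from -0.84 to 3.50. Of the others, the HSP70-binding gene Cs6g06800 had 217, 220 and 202 reads in Gv against 244, 194 and 259 in control. The binding protein gene orange1.1t01657 had 151, 201 and 119 in Gv against 179, 123 and 88 in control, lowest in replicate 3 of both groups. Both had overlapping groups.

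Of the 6 heat stress factors 5 were tested, and 4 of these were lowest in replicate 3 of both groups. Cs1g22660, matched to HSF24 (a class B factor in tomato), had 760, 737 and 359 reads in Gv against 450, 685 and 321 in control. Cs2g04400 had 438, 454 and 241 in Gv against 388, 533 and 250 in control. Cs9g07650, matched to HSF30, which is the heat-induced factor HsfA2 in tomato, had 111, 143 and 37 in Gv against 152, 137 and 82 in control. In all of these replicate 3 was the lowest library of its group, and Gv and control overlapped.

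Cs5g25330, matched to HSF8, the constitutive factor HsfA1 in tomato, behaved differently, with 375, 408 and 326 reads in Gv against 405, 403 and 433 in control. In scaled CPM every Gv library of Cs5g25330 was below every control library, although the log2 fold change was only -0.13 ± 0.12 (SE). In RPKM as deposited its groups overlapped, at 11.7 ± 0.972 in Gv and 12.7 ± 0.661 in control (SD, n = 3). Cs7g24140, the remaining factor tested, had 199, 212 and 190 reads in Gv against 201, 197 and 181 in control.

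Small HSPs were mostly low. Of 19 genes, 11 were tested, and their median log2 fold change was -0.05. The most abundant, orange1.1t01849, gave 42.6% of the family's reads and had 643, 728 and 438 reads in Gv against 624, 612 and 425 in control. Cs3g27670 had 213, 233 and 108 in Gv against 154, 218 and 103 in control. Both were lowest in replicate 3 of each group, with overlapping groups.

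The largest positive fold change of the small HSPs was that of Cs3g07650, with 138, 196 and 164 reads in Gv against 125, 153 and 118 in control. The groups overlapped. Gv was higher in each of the 3 pairs of equal replicate number, by 0.20, 0.30 and 0.56 in log2 CPM. That rests on the numbering, since Gv replicate 1 (6.52 RPKM) was below control replicate 2 (6.74). The log2 fold change of Cs3g07650 was 0.36 ± 0.18 (SE). Its unadjusted p was 0.087 in edgeR and 0.035 with the replicate block, where it was the only small HSP under 0.05.

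The class V gene Cs2g07920, matched to a 15.4 kDa protein, had 50, 57 and 72 reads in Gv against 40, 49 and 309 in control. Control replicate 3 alone was high. Its log2 fold change of -1.09 ± 0.78 (SE) became 0.44 without that library, so 1 library set its direction. Cs8g18360, matched to a class I small HSP, and Cs8g18020, matched to HSP18.1A, went the other way in the same library. The former had 41, 25 and 29 reads in Gv against 65, 53 and 20 in control. The latter had 12, 8 and 11 in Gv against 20, 15 and 2 in control. Cs6g07310, matched to heat shock protein 18, was highest there, with 29, 21 and 29 in Gv against 33, 20 and 50 in control. Another class I gene, Cs6g07320, did neither, with 17, 22 and 17 in Gv against 28, 15 and 16 in control. Small HSPs thus had no common direction in that library.

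The protein orange1.1t02556 was counted as a chloroplast small HSP by its protein match, but its KEGG entry is a proteasome inhibitor, so its family is uncertain. It had 88, 106 and 118 reads in Gv against 115, 102 and 121 in control. The other 8 small HSPs, those of mitochondrial, class I and class IV type among them, were under the test's minimum.

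Chaperones of the ER varied more between replicates than between groups. The luminal-binding protein gene Cs5g01840, the ER form of HSP70, had 1796, 1992 and 3498 reads in Gv against 2217, 2118 and 3546 in control. Calreticulin (Cs3g15060), a lectin chaperone that holds new glycoproteins, had 1561, 2066 and 3149 in Gv against 2157, 1811 and 2601 in control. The protein disulfide isomerase gene Cs3g19790, which forms and rearranges disulfide bonds, had 1002, 1241 and 2081 in Gv against 1224, 1086 and 2274 in control. In all of them replicate 3 was the highest library of its group, and Gv and control overlapped. Their log2 fold changes between the groups were -0.07 ± 0.33, 0.08 ± 0.29 and -0.04 ± 0.38 (SE). The disulfide isomerase Cs5g33860 did not rise in replicate 3 in this way, with 932, 1027 and 1104 reads in Gv against 1203, 1108 and 1160 in control. The largest fold changes of the family were those of 2 low disulfide isomerase genes. Cs6g08810 had 78, 80 and 73 reads in Gv against 83, 68 and 61 in control, and Cs8g17020 had 101, 93 and 142 against 78, 108 and 138. Their groups overlapped, at log2 fold changes of 0.16 ± 0.18 and 0.10 ± 0.27 (SE).

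Of the 9 chaperonin genes 5 were tested. Cs5g26800, the alpha subunit of the cytosolic chaperonin that folds actin and tubulin, had 591, 618 and 687 reads in Gv against 560, 572 and 594 in control, so that the reads overlapped at 591 and 594. In scaled CPM all Gv libraries were above all control libraries. The difference was small, with a log2 fold change of 0.17 ± 0.12 (SE). The organelle chaperonins were again highest in replicate 3 of both groups. Cs1g18140, of the CPN60 type, had 63, 82 and 142 reads in Gv against 77, 85 and 162 in control. Cs4g07030, matched to the GroES lid, had 438, 509 and 639 in Gv against 437, 469 and 708 in control. Cs2g29390, another lid type, had 48, 60 and 93 reads in Gv against 56, 71 and 103 in control.

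The lowest fold change of the family, -0.47 ± 0.49 (SE), was that of the plastid chaperonin Cs2g11170, with 20, 32 and 43 reads in Gv against 30, 27 and 79 in control. Its groups overlapped, and replicate 3 was the highest of both. The median log2 fold change of the chaperonins between the groups was -0.13, with a range from -0.47 to 0.17. It was -0.48 without Gv replicate 3 and 0.18 without control replicate 3, so its direction depended on those libraries.

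The median departure of replicate 3 was alike in both groups in 4 families. Taken as log2 CPM of replicate 3 minus the mean of replicates 1 and 2, the family median was 0.42 in Gv and 0.43 in control for HSP70, 0.39 and 0.28 for ER chaperones, and 0.75 and 0.63 for chaperonins. It was -0.85 in both groups for heat stress factors, and 0.00 in both over all genes tested. In the other families the medians were not alike. They were 0.03 and -0.28 in Gv and control for small HSPs and -0.31 and 0.01 for DnaJ proteins. For HSP90 they were 0.12 and -0.02, and for cochaperones -0.21 and -0.03. Gene by gene, the departures in Gv and control correlated by 0.83 in cochaperones and 0.70 in DnaJ proteins, beside 0.61 over all genes. In small HSPs that correlation was 0.42. Replicate 3 was the highest library of both groups for 9 of 12 HSP70 genes, 4 of 8 ER chaperones and 4 of 5 chaperonins, and the lowest of both for 4 of 5 heat stress factors.

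Over all 65 members tested it was the highest of both groups for 22 (33.8%), beside 27.9% of all genes, and the lowest of both for 19 (29.2%), beside 27.6%. The sign agreed between the groups for 49 members (75.4%), beside 71.2% of all genes. These shares are near those of genes at large, so the members as a whole did not stand apart in replicate 3, while single families departed in opposite directions. The pattern is a description with 1 such library in each group, and what sets these libraries apart was not tested.

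**Figure D4:**
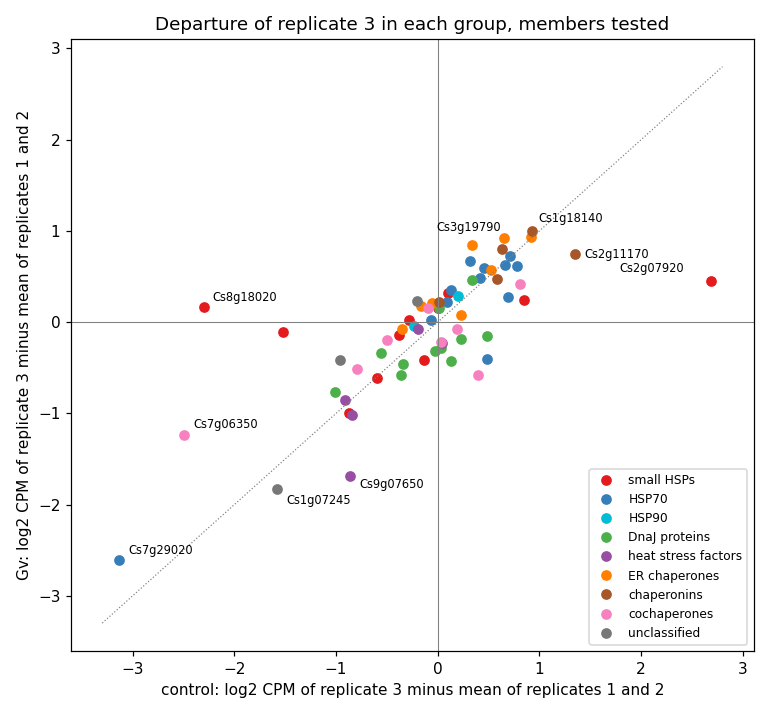
Departure of replicate 3 in Gv (vertical axis) against that in control (horizontal axis), each as log2 CPM of replicate 3 minus the mean of replicates 1 and 2, for the 65 members tested, coloured by family, with a dotted line where both are equal. HSP70, ER chaperone and chaperonin genes lie mostly in the upper right, heat stress factors in the lower left, and Cs2g07920 far to the right because only control replicate 3 was high.

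Without replicate 3 in both groups the median log2 fold change was -0.01 for HSP70, -0.09 for ER chaperones, -0.13 for chaperonins, -0.04 for heat stress factors and -0.05 for small HSPs. It was 0.24 for HSP90, 0.14 for cochaperones and 0.14 for DnaJ proteins, the last beside 0.05 with all libraries. In that fit 0 of the 66 members tested were called in either direction, beside 166 higher and 39 lower of all 16349 genes tested.

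The 12 unplaced members under the test's minimum had 1 to 18 reads in all, and of the 3 tested Cs1g07245 was also low in replicate 3, with 85, 85 and 22 reads in Gv against 83, 86 and 28 in control. Cs1g09363 had 40, 35 and 27 in Gv against 53, 35 and 22 in control, and orange1.1t05929 had 47, 32 and 45 in Gv against 35, 41 and 34 in control, all with overlapping groups. The 40 members not tested had 1 to 61 reads over the 6 libraries. Of these, 8 had no read in control and 2 none in Gv, at counts too low to set the groups apart.

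Other genes of the same pathways, found by name and not members, gave a like picture. Of 13 genes of ER quality control 12 were tested, of 30 cochaperones and folding catalysts 27, and of 18 partner genes of the heat stress response 15, and edgeR with or without the block and DESeq2 called 0 in each list. At an unadjusted p under 0.05 in edgeR without the block, 1 folding catalyst was higher and 1 heat stress partner lower in Gv, and 0 in the ER list either way, beside the 3% and 1.57% of all genes. With the block 2 folding catalysts were higher and 2 lower and 1 heat stress partner lower, beside 5.44% and 3.56%. Their median log2 fold changes were -0.02, 0.01 and -0.04. Endoplasmin (Cs3g26260), the ER form of HSP90, had 1727, 1950 and 3262 reads in Gv against 2099, 1642 and 3262 in control. Calnexin (Cs7g19400), the membrane-bound partner of calreticulin, had 1586, 1716 and 2466 in Gv against 1856, 1681 and 2417 in control. Both were thus highest in replicate 3 of each group, as the ER chaperones were, and replicate 3 was the highest of both groups for 8 of the 12 ER quality control genes.

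In the heat stress list Cs4g02760, matched to ClpB, which disentangles aggregated proteins, had 479, 515 and 425 reads in Gv against 669, 717 and 553 in control. Every Gv library was below every control library, with a log2 fold change of -0.42 ± 0.16 (SE) that did not pass the adjustment. Galactinol synthase (Cs7g08770), which heat stress factors switch on in Arabidopsis, had 150, 167 and 169 reads in Gv against 126, 201 and 553 in control. Its one high library was control replicate 3, the same as for the class V small HSP Cs2g07920.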

How the data were processed

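Whole lateral roots were sequenced as 3 Gv and 3 control libraries, grouped by the sample labels. The authors filtered the reads, used SOAPaligner/SOAP2 to place them on the genome of Citrus sinensis with 2 mismatches allowed, and deposited for each gene the count of uniquely aligned reads and its RPKM. The version of the annotation is not given in the sources used here. A gene not listed for a library was taken as 0 reads. The study's NOISeq test was not run here.

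Counts were tested in edgeR 4.0.16 (R 4.3.3) with filterByExpr, TMM scaling and a group term, with Benjamini-Hochberg adjustment over 16281 genes, and alternatively in DESeq2 1.42.0. Both were also run on simulated counts that had less spread than these data and no effect of replicate 3. That run therefore does not show how well they perform here. Log2 CPM used a prior count of 2. Depth was 4.34 M to 4.71 M reads on genes per library, so genes with few reads carry wide intervals. Tables were joined in Python 3.11.15 with pandas 2.3.3.

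The replicate numbers come from the sample titles. Deviations from the group means correlated across genes by 0.36, 0.48 and 0.61 for numbers 1, 2 and 3, all above 0.1, which was read as a pairing of the libraries, and a fit with the number as a block was run. Number 1 of Gv correlated as well with number 2 of control (0.43), so the pairing rests mainly on number 3.

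The members, families and lists were chosen with earlier results of these data known. Families follow the first match of the protein text (74 members), else the KEGG entry (16), and 15 stayed unplaced. Genes named were, per family, those with the highest RPKM, the largest and smallest fold changes and the largest departures of replicate 3, and those with an unadjusted p under 0.05. Cs2g12800, Cs8g18020, Cs6g07310, Cs6g07320, orange1.1t02556, the untested pair orange1.1t04990 and orange1.1t02795, and the genes of other lists were named after their values were seen. No sequence of a member was used here.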

Additional observations from a re-analysis of the deposited data

How the results depend on the processing

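Members called were 0 in each direction under library totals, upper-quartile scaling, no filter on low counts and a minimum mean of 10 reads. These fits also called 0 of all genes, so their 0 says nothing particular to the members. DESeq2, the replicate block and no limit on the fold change gave 0 members as well. So did leaving out each library, where only the fit without Gv replicate 3 called any gene, 65 higher and 1 lower of 16573. Leaving out number 3 in both groups, chosen after seeing the data, also called 0 members, beside 166 higher and 39 lower of 16349 genes. In the fit with the replicate block the median log2 fold change of all members was 0.03, beside 0.01 without it, the common coefficient of variation was 16.7% in place of 29.9%, and no member's call changed. With each library left out in turn the median of all members ran from -0.0286 to 0.0673 and that of HSP70 from -0.0985 to 0.0854, against a value without omission of 0.03, so its sign rested on single libraries. The same omissions moved the median of chaperonins from -0.48 to 0.18 and of ER chaperones from -0.18 to 0.13. They moved that of heat stress factors from -0.17 to 0.11 and that of DnaJ proteins from -0.02 to 0.13. The median of the unplaced genes moved from -0.35 to 0.23. Each of these medians thus changed sign. Small HSPs stayed from -0.14 to -0.02, HSP90 from 0.23 to 0.35 and cochaperones from 0.09 to 0.15. The HSP90 median rests on only 2 genes. Genes with the same KEGG entry that the rule did not take had negative fold changes, each smaller in size than its SE. Cs2g19730, Cs7g12130 and Cs5g03150 had log2 fold changes of -0.13 ± 0.31, -0.15 ± 0.38 and -0.67 ± 0.82 (SE), with overlapping groups. The log2 fold change of Cs2g07920 ran from -1.52 to 0.44, the latter without control replicate 3. That of Cs2g15230 ran from 1.201 to 1.79 and that of Cs7g29020 from -0.61 to 0.98. The 1 member with every Gv library below control became 0 in RPKM as deposited and 0 in CPM on library totals. Of 528 alternative values of 44 named members, 44 changed sign, in 20 members. Depth leaves 40 members with too few reads to be compared.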

Other observations

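Outside the members, 64 genes carried a chaperone entry in KEGG while their protein match lacked the words of the rule. Some of these matches name a chaperone in other words, such as ClpB or endoplasmin. Some of the genes, Cs3g26260 and Cs4g02760 among them, are also in the lists above. Of the 64 genes 50 were tested, with a median log2 fold change of 0.03 and 0 calls in edgeR without the block. With the replicate block 1 of the 50 was called higher in Gv, beside 0.958% of all genes. With DESeq2 2 were, beside 1.15% of all genes, and both are named here after their values were seen. The gene orange1.1t03984, annotated in KEGG as a protein disulfide isomerase but matched to a hypothetical protein of Phytophthora sojae, an oomycete, had 21, 24 and 102 reads in Gv against 1, 0 and 0 in control. All Gv libraries were far above control, with the highest in Gv replicate 3, the library with the most symbiosis reads. Its 147 reads in Gv against 1 in control gave a ratio of 152 per read on genes, with an exact interval from 26.8 to 6029 that covers counting error only. The adjusted p was 0.360 in edgeR, 0.0206 with the replicate block and 8.0e-05 in DESeq2. A gene with the same KEGG entry, orange1.1t05332, matched to an unnamed protein of Populus trichocarpa, had 9, 22 and 116 reads in Gv against 0, 0 and 0 in control, and was also highest in Gv replicate 3. It was under the test's minimum, and its 147 reads in Gv were at least 50.5-fold higher than control, with 3 counts over the control group as the floor. Whether the reads of these genes come from the plant or from another organism in the root was not tested.

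Cs8g14930, of the HSP20 family by its KEGG entry and with no protein match given, had 40, 42 and 74 reads in Gv against 16, 19 and 15 in control. Every Gv library was more than 2 times the highest control library in RPKM. Its log2 fold change was 1.67 ± 0.33 (SE), with an adjusted p of 0.367 in edgeR, 0.153 with the replicate block and 0.0102 in DESeq2. HSP20 is the family of the small HSPs, and no small HSP among the members passed in edgeR, with or without the block, or in DESeq2. The HSP70-type gene Cs7g29040, near Cs7g29020 in identifier, had 108, 113 and 35 reads in Gv against 71, 114 and 39 in control, and was thus also low in replicate 3 of both groups. In the list of folding catalysts Cs4g01240, a peptidyl-prolyl isomerase, had 22, 18 and 83 reads in Gv against 10, 8 and 19 in control. Its log2 fold change of 1.77 ± 0.70 (SE) did not pass in edgeR with or without the block.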
